A study of Mus musculus with 7 samples.

Results

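Epithelial cells of the fetal mammary rudiment, sorted as Sox10+EpCAM+ fMaSC, were compared with the EpCAM-negative stroma taken by the same sort. fMaSC stands for fetal mammary stem cells, the name that the labels give to this cell fraction. The members are 3 of the 7 libraries of the series: 2 of Sox10+EpCAM+ fMaSC (replicates 1 and 2) and 1 of EpCAM-negative stroma. They were chosen by their columns in the deposited FPKM table (fragments per kilobase of transcript, scaled to the size of the library). A gene was kept if any of these 3 libraries held it at 1 FPKM or higher, which left 14483 of 38579 gene entries, and folds were taken on the log2(FPKM + 1) scale.

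All libraries came from primary cells of CD1 mice at E17.5, a late day of gestation. The fMaSC fraction carried the Sox10-Venus fluorescent reporter and surface EpCAM, and the stroma fraction is labelled as EpCAM-negative, with a column that also calls it Sox10-negative. The columns call all 3 libraries lineage-negative, although the label of fMaSC replicate 1 does not mention it. The other 4 libraries, 2 of CD24+CD49f+ fMaSC and 2 of CD24low stroma, came from a sort of the same stage on CD24 and CD49f. They enter here as the source of replicate spread and as the other side of a test of the difference between the sorts. The stroma of the Sox10 sort is a single library, so its spread was assumed to be that of the groups with 2 libraries.

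In the late fetus the mammary rudiment is a branching epithelial tree that grows from the skin into mesenchyme and the precursor of the fat pad. The epithelium carries keratins, claudins, desmosomes and laminins at its base, while the mesenchyme lays down fibrillar collagen and sends growth factors of the FGF, IGF and WNT families. Pthlh from the epithelium and its receptor Pth1r in the mesenchyme form a known signal of this organ, and Sox10 marks a stem and progenitor state of mammary epithelium besides its roles in neural crest, glia and melanocytes.

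The sorted fractions bore the markers of their labels. Epcam (ENSMUSG00000045394, chromosome 17, 87635979 to 87651106 of GRCm38), which encodes the adhesion protein used to sort, stood at 219 and 230.3 FPKM in the fMaSC libraries and 1.19 in the stroma. Sox10 (ENSMUSG00000033006, chromosome 15, 79154913 to 79164490) stood at 103 and 110.3 against 0.493 FPKM. These levels are set by the sort and are no finding. Of the markers of other cell types, the 8 fibroblast genes summed to 74.7 and 105.5 FPKM in the fMaSC libraries and 6439 in the stroma, with 7 of 8 lower in fMaSC. All 7 adipocyte-lineage genes and all 6 pericyte genes were lower too, at summed levels of 21.3 and 14.5 against 1204 FPKM and of 7.197 and 10.2 against 172.8 FPKM, and 4 and 5 of them reached 1 FPKM in the stroma only. None of the 8 leukocyte genes reached 1 FPKM in any of the 3 libraries.

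Markers of other lineages that carry Sox10 were checked as well. The 7 melanoblast genes summed to 27.6 and 33.4 FPKM in fMaSC and 3.36 in the stroma, and 4 of the 5 kept were higher. Of the 5, 3 reached 1 FPKM in fMaSC only, and 1 of the 2 that both fractions held was higher. Pmel, a melanosome protein, stood at 3.26 and 4.35 against 0.183 FPKM, a log2 fold of 2.01 (SE 0.29, limma adjusted p = 0.00621). The 8 Schwann and glial genes summed to 16.9 and 21.6 against 8.44 FPKM, with 1 higher and 1 lower of 6 kept. In RNA from pooled cells, fewer cells of a type and less RNA per cell cannot be told apart.

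Of the 14483 genes, limma called 3799 (26.2%) at an adjusted p under 0.05, with 1825 (12.6%) higher and 1974 (13.6%) lower in fMaSC. In each of the 3799 both fMaSC libraries lay on the same side of the stroma library. A call on their mean favours this, so it adds no support, and the share over all genes is not given. The median log2 fold over all genes was 0.108. Entries that passed the filter through stroma only (1304) had to be lower in fMaSC. Those that passed through fMaSC only (1438) had at least 1 fMaSC library above the stroma, which favours a higher fold. The counts and medians of the gene lists below are therefore descriptions. Among the 11439 genes at 1 FPKM or more in all 3 libraries, 1035 were called higher and 992 lower. The labels call the libraries biological replicates. The p-values rest on the spread within the 3 groups with 2 libraries, among them the groups of the other sort. They do not measure the spread of the EpCAM-negative stroma, which has 1 library.

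The balance of directions moved with scaling. Mitochondrially encoded genes took 19% and 15.6% of the summed FPKM in the fMaSC libraries and 6.23% in the stroma, and summed FPKM was 738870 and 607320 against 378950. With every library scaled to the same sum, 2035 genes were called and 567 (27.9%) of them were higher, against 48.0% on the deposited values, and the median log2 fold moved to -0.625. Scaling to the same sum without mitochondrial genes gave 2263 calls, 716 (31.6%) of them higher, and a median of -0.424. Without fMaSC replicate 1 there were 1714 calls and without replicate 2 there were 1817. Without CD24+CD49f+ fMaSC replicates 1 and 2 the genes called higher numbered 2888 and 2891. No called gene named below changed direction in any of these settings.

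**Figure D1:**
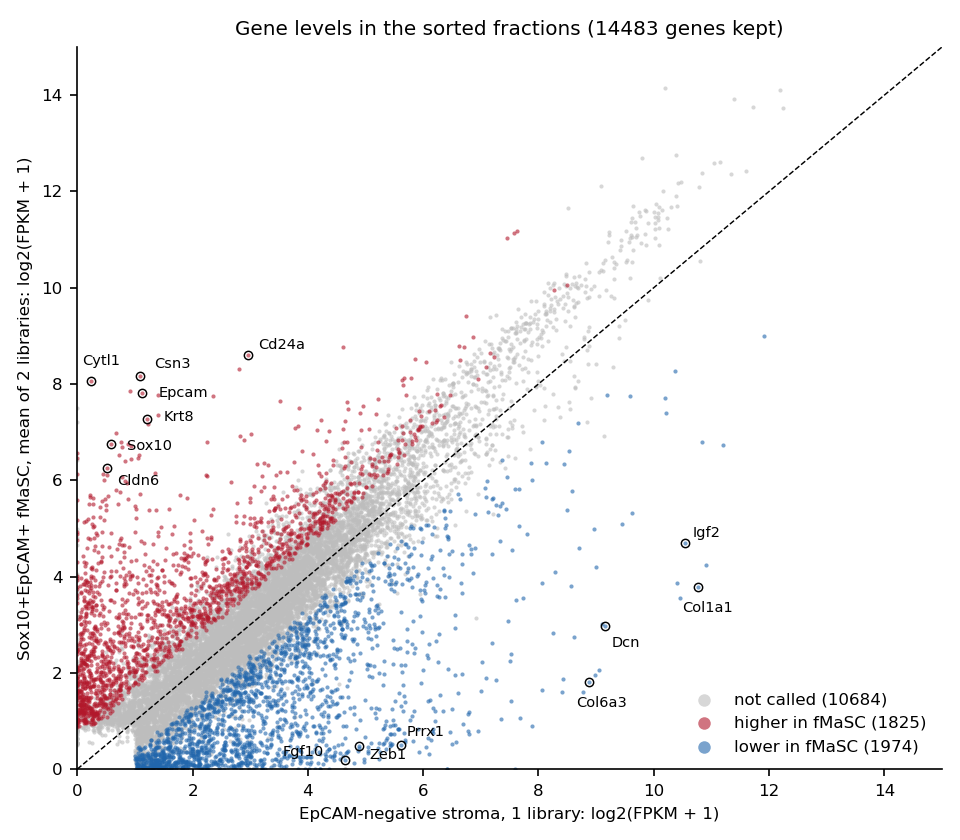
Level of each of the 14483 genes in the EpCAM-negative stroma library (x axis) and the mean of the 2 Sox10+EpCAM+ fMaSC libraries (y axis), both as log2(FPKM + 1). Red points (1825) were called higher in fMaSC, blue points (1974) lower, and the dashed line marks equal levels. Epithelial genes such as Epcam and Krt8 sit at the upper left, and Col1a1, Igf2 and Prrx1 at the lower right.

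The 25 largest folds towards fMaSC, among genes at 5 FPKM or more there with provisional and small RNA names left out, ran from 5.47 to 7.82. Epcam and Sox10, the genes of the sort, are among them, as are the histone genes Hist1h2bm, Hist1h2bf and Hist1h2bb described further on. Cytl1, a cytokine-like secreted protein known from cartilage, was at 413 and 171 FPKM against 0.179 in the stroma, a log2 fold of 7.82 (SE 0.55, limma adjusted p = 0.000721). Its fMaSC libraries lay far apart from each other, but both were far above the stroma. Csn3, which encodes the milk protein kappa-casein, was at 311 and 263 against 1.12 FPKM, a log2 fold of 7.08 (SE 0.68, limma adjusted p = 0.00164). The keratins of simple epithelium Krt8 (140.0 and 169.8 against 1.30 FPKM) and Krt18 (147 and 179.9 against 1.63) were in this set too, with Igfbp2, which binds insulin-like growth factors, at 222 and 211 against 1.63. Aldoc, a glycolytic aldolase, was at 136 and 117 against 0.592 FPKM. The cell cycle regulator Sfn, the protease inhibitor Spint2 and the chitinase-like gene Chil1 had log2 folds of 5.92, 5.79 and 5.54.

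By the same limits, the 25 largest folds towards the stroma ran from -7.18 to -5.79. Car3, a carbonic anhydrase abundant in fat cells, was at 3.01 and 1.28 FPKM in fMaSC and 436 in the stroma, a log2 fold of -7.18 (SE 0.55, limma adjusted p = 0.000899). Clec3b, which encodes the plasminogen-binding protein tetranectin, was at 0.570 and 1.23 against 236 FPKM. Dpt, the matrix protein dermatopontin, was at 1.89 and 2.23 against 337 FPKM. In each of these genes the stroma stood more than 100-fold above both fMaSC libraries. Lpl, the lipoprotein lipase, was at 1.17 and 1.02 against 204 FPKM, the angiotensin receptor Agtr2 at 1.74 and 2.57 against 266, and Cd248, a fibroblast and pericyte surface protein, at 1.51 and 1.82 against 184. Every gene among these 25 of either direction kept its call in each alternative tried.

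Factors that set epithelial identity were mostly high in fMaSC. Of 27 epithelial transcription and splicing factors kept besides Sox10, 22 were higher and 1 lower, with a median log2 fold of 3.24. With Sox10 counted, 19 of the 28 passed the filter through fMaSC only and 1 through the stroma only, and 6 of the 8 that both fractions held at 1 FPKM were higher. Esrp1 and Esrp2, which direct epithelial splicing, were both higher. Esrp1 was at 29.6 and 33.7 against 0.202 FPKM and Esrp2 at 18.7 and 18.7 against 0.662. Tfap2c, an AP-2 factor of mammary and skin epithelium, was at 44.5 and 43.9 against 0.154 FPKM, a log2 fold of 5.29 (SE 0.20, limma adjusted p = 0.000359). Its relatives Tfap2a and Tfap2b had log2 folds of 3.68 and 3.74. The epithelial activator Grhl2 had a fold of 3.52, and Ovol1 and Ovol2, which restrain mesenchymal programmes, of 4.17 and 1.75. Grhl3, a relative of Grhl2, was at 9.01 and 10.99 FPKM in fMaSC and listed at 0 in the stroma.

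Regulators of both lineages of the later gland were measured in the same fraction. Gata3, a luminal regulator, was at 27.98 and 30.3 against 0.507 FPKM and Elf5, the driver of alveolar differentiation, at 16.1 and 17.54 against 0.199. Trp63, the master regulator of basal epithelium, was at 8.41 and 8.44 against 0.733 FPKM. Besides Epcam, 6 of 7 luminal markers were called higher, and so were 6 of 6 basal markers, 5 of which reached 1 FPKM in fMaSC only. Krt14, a basal keratin, was at 71.9 and 105 against 1.08 FPKM and Krt5 at 23.4 and 34.1 against 0.266. The homeobox gene Irx3 had a log2 fold of 4.45. Msx1, a homeobox gene of the early bud, was the exception, at 0.588 and 0.615 against 3.85 FPKM, a log2 fold of -1.60 (SE 0.19, limma adjusted p = 0.00345). Tbx3, Sox9, Spdef and Bcl11b were not called, and Sox9 stood at 16.8 and 18.9 against 13.2 FPKM.

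Cell junction genes were mostly higher in fMaSC. Of 20 desmosome and hemidesmosome genes kept, 17 were higher and none lower (median log2 fold 2.64). Of 20 tight junction and polarity genes, 16 were higher and none lower (median 2.34). In each of these lists 13 of the 20 reached 1 FPKM in fMaSC only. The desmosome list held 8 calls on values scaled to the same sum. Dsp, the plaque protein that ties desmosomes to keratin, was at 22.4 and 31.6 against 0.166 FPKM, a log2 fold of 4.57 (SE 0.34, limma adjusted p = 0.000802). Perp and Pkp3, other desmosome proteins, had log2 folds of 5.59 and 5.48, Itgb4, the integrin of hemidesmosomes, of 3.54, and Col17a1, its collagen partner, of 2.63. Lsr, which marks the tight junctions between 3 cells, was at 33.4 and 35.5 against 0.113 FPKM, and Ocln at 18.03 and 20.2 against 0.334. Crb3, an apical polarity protein, was at 14.7 and 14.6 FPKM and listed at 0 in the stroma. Plec and Tjp1, linkers that many cell types use, were not called. Plec was at 10.5 and 11.99 against 11.3 FPKM and Tjp1 at 9.35 and 9.76 against 5.86.

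Of 20 epithelial surface proteins, 16 were higher and none lower, with a median of 3.23, and 15 reached 1 FPKM in fMaSC only. Plet1, a surface protein of placental and epithelial progenitors, was at 79.5 and 105 against 1.09 FPKM, a log2 fold of 5.47 (SE 0.34, limma adjusted p = 0.000529). The tetraspanin Tspan8 had a log2 fold of 5.01. The membrane protease St14 (matriptase) and Cdcp1, a surface protein that it can cleave, had folds of 4.32 and 5.12. Muc1, a mucin of the apical surface, was low in all 3 libraries (0.821 and 1.63 against 0.761 FPKM) and was not called.

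The promoters of 3 of these epithelial genes are shown with that of Col1a2, a stromal collagen chain, since the E-box CACCTG, searched on both strands, is the element that the repressors Zeb1, Zeb2, Snai1 and Snai2 are known to bind. Each stretch holds the 250 bases before the start site from RefSeq (GRCm38.p6), 5′ to 3′ on the strand of the gene, and capitals mark the E-box. Epcam is on the plus strand at chr17:87635729-87635978, Krt8 on the minus strand at chr15:102004343-102004592, Cldn6 on the plus strand at chr17:23679115-23679364 and Col1a2 on the plus strand at chr6:4505368-4505617.
Epcam: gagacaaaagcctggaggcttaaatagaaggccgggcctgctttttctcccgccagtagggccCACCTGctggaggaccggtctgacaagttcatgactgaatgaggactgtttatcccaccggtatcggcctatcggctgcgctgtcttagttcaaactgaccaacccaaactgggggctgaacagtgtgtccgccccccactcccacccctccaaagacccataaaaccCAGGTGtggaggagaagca
Krt8: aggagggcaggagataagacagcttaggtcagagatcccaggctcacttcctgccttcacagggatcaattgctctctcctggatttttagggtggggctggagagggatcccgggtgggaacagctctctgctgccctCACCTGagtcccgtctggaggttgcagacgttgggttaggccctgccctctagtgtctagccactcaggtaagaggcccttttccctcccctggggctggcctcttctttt
Cldn6: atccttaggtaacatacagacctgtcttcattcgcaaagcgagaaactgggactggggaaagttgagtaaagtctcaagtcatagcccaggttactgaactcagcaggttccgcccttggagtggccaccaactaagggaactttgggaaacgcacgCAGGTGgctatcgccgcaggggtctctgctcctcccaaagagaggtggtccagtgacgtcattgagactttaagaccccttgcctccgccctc
Col1a2: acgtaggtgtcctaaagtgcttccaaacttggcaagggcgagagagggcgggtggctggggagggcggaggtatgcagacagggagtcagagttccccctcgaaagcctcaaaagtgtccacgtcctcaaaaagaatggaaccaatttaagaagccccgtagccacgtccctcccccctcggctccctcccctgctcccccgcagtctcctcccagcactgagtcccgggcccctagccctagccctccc

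In Epcam the E-box began 187 and 19 bases before the start site, in Krt8 111 bases before it and in Cldn6, an embryonic claudin, 93 bases before it. The Col1a2 window had no match to these letters. Over all 32851 windows of this length from the table, 17.2% held the E-box, and over the 12549 windows that matched kept genes by symbol 15.3%. It was present in 417 of 1693 windows of genes called higher (24.6%), in 240 of 1826 of genes called lower (13.1%) and in 1263 of 9030 of genes not called (14%). Among the lists, 13 of 22 windows of tight junction and polarity genes (59.1%) and 8 of 15 of epithelial surface genes (53.3%) held it. By contrast 1 of 19 windows of mesenchymal patterning factors (5.26%) and 2 of 29 of collagen chains (6.9%) did. The shares of lists did not simply follow their folds. Cartilage-type matrix, the list with the highest median fold, had it in 0 of 9 windows. Of lists with few or no calls, DNA replication and mitosis had it in 1 of 22 (4.55%) and cytosolic ribosomal proteins in 1 of 20 (5%). Nuclear oxidative phosphorylation had it in 4 of 17 (23.5%). Some genes have more than 1 window, and a match to letters shows no binding. Searched the same way, the box CCAAT was in 33.4% of windows of genes called higher, 34% of genes called lower, 35.9% of genes not called and 33.8% of all. The palindrome AACCGGTT, a form of the Grainyhead element, was in 3 windows of genes called higher (0.177%), 3 of genes called lower (0.164%), 21 of genes not called (0.233%) and 0.116% of all.

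Factors of mesenchyme showed the opposite direction. Of 29 mesenchymal patterning factors kept, 23 were lower and 2 higher in fMaSC, with a median log2 fold of -3.14, and 21 reached 1 FPKM in the stroma only. Zeb1 was at 0.294 and 0.498 FPKM in fMaSC and 28.7 in the stroma, a log2 fold of -4.42 (SE 0.42, limma adjusted p = 0.00164), and Zeb2 at 1.10 and 2.94 against 49.6. Twist1 and Twist2, basic helix-loop-helix factors of mesenchyme, had log2 folds of -4.75 and -4.93. The limb and dermal homeobox gene Prrx1 was at 0.381 and 0.463 against 47.8 FPKM, a log2 fold of -5.10 (SE 0.49, limma adjusted p = 0.00164). Tbx15, a factor of dermis and fat precursors, and Ebf1, a factor of fat and stromal cells, had folds of -4.54 and -4.50. The stroma library was above both fMaSC libraries for each of these genes.

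Snai2, a Snail-family repressor also known from basal mammary cells, went against its list, at 50.002 and 42.01 FPKM in fMaSC and 21.1 in the stroma, a log2 fold of 1.09 (SE 0.24, limma adjusted p = 0.0247). That call ended without fMaSC replicate 1 (adjusted p = 0.141) and without replicate 2 (0.0849), without either CD24low stroma library (0.0556 and 0.0557), and on values scaled to the same sum with (0.711) or without (0.507) mitochondrial genes or quantile normalized (0.0759). Foxc1, a forkhead factor, was the other member higher, at 6.37 and 6.81 against 0.328 FPKM. Snai1 was at 1.47 and 1.62 against 21.5 FPKM, with a log2 fold of -3.14 (SE 0.52, limma adjusted p = 0.00923) whose adjusted p became 0.0674 and 0.061 without fMaSC replicates 1 and 2.

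Collagen chains divided by type. Of 33 chains kept, 16 were lower and 8 higher in fMaSC, with a median log2 fold of -1.32. Of the 33, 6 reached 1 FPKM in the stroma only and 5 in fMaSC only. Among the 22 that both fractions held, 14 were lower and 3 higher. Without fMaSC replicate 1 there were 10 lower, and on values scaled to the same sum 5 were higher. Col1a1, a chain of the main fibrillar collagen, was at 9.51 and 16.9 FPKM in fMaSC and 1751 in the stroma, a log2 fold of -7.00 (SE 0.62, limma adjusted p = 0.00135). Its partner chain Col1a2 (ENSMUSG00000029661, chromosome 6, 4504814 to 4541543) was at 7.49 and 15.02 against 1400.2 FPKM and the fibrillar Col3a1 at 13.3 and 23.9 against 1916. Col6a1, Col6a2 and Col6a3, the chains of a microfibrillar collagen of mesenchyme, had log2 folds of -7.00, -7.03 and -7.08. Col6a1 was at 2.47 and 3.95 against 528 FPKM and Col6a3 at 2.10 and 2.93 against 469.7. Both fMaSC libraries were far below the stroma for every one of these chains, and replicate 2 was the higher of the pair.

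The 8 chains higher in fMaSC were Col9a1, Col9a2, Col9a3, Col2a1, Col11a2, Col17a1, Col4a5 and Col4a6. Collagen IX is known from the surface of cartilage fibrils. Its chain Col9a3 stood at 139.6 and 147 FPKM in fMaSC and 1.35 in the stroma. This was the largest fold towards fMaSC of the list at 5.94 (SE 0.24, limma adjusted p = 0.000359). Col9a1 stood at 15.8 and 19.1 against 0.198 FPKM and Col9a2 at 35.95 and 45.8 against 1.35. Col2a1, the main cartilage collagen, was at 2.15 and 1.74 against 0.0730 FPKM. Of the basement membrane collagen IV chains, Col4a5 and Col4a6 were higher (3.46 and 4.45 against 0.244 FPKM for Col4a6), while Col4a1 and Col4a2 were lower (71.8 and 92.3 against 232 FPKM for Col4a1). The calls of Col4a1 (adjusted p = 0.191 and 0.113) and Col4a2 (0.167 and 0.104) ended without fMaSC replicate 1 or 2, that of Col4a1 also without CD24low stroma replicate 1 (0.0568) or 2 (0.0582), and that of Col11a2 without fMaSC replicate 1 (0.063). On values scaled to the same sum Col2a1 (0.0554), Col11a2 (0.438) and Col4a5 (0.271) lost their calls, and Col4a1 (0.0566) and Col4a2 (0.0571) did too. With no filter on low values the adjusted p was 0.0711 for Col4a1 and 0.0696 for Col4a2. Leaving mitochondrial genes out of the scaling also ended the calls of Col11a2 (0.309), Col4a5 (0.173), Col4a1 (0.0527) and Col4a2 (0.0519).

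**Figure D2:**
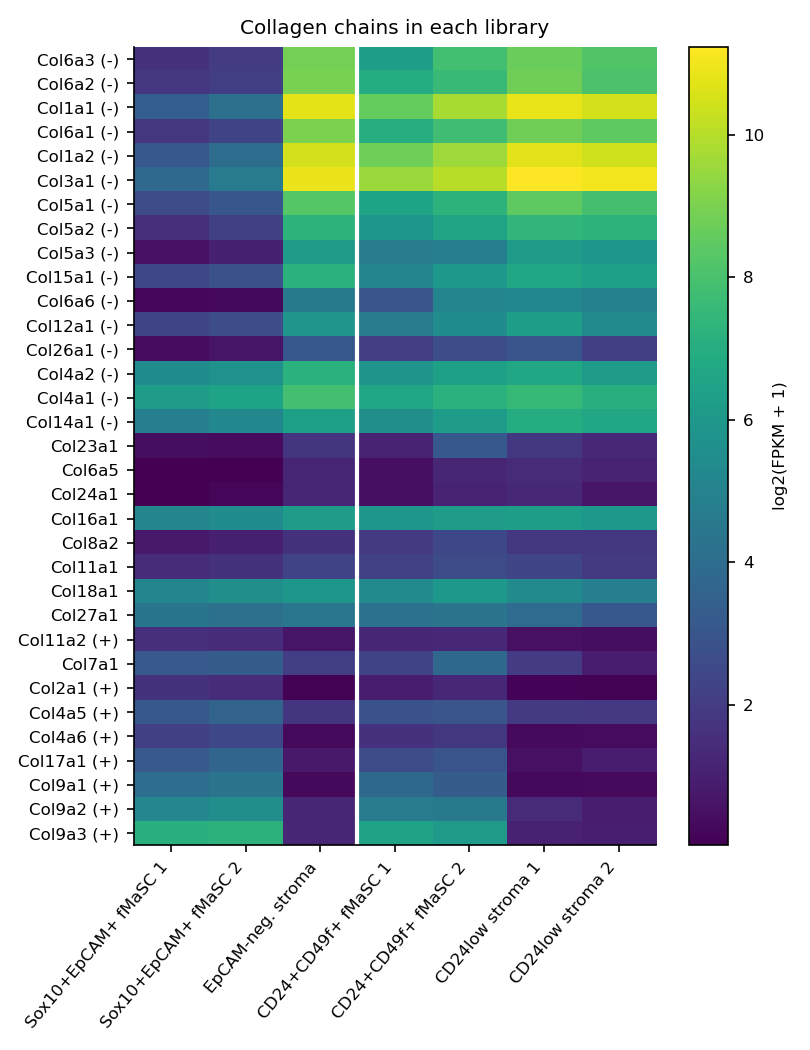
Level of each of the 33 collagen chains kept (rows, ordered by fold in the Sox10 sort) in the 7 libraries (columns), as log2(FPKM + 1); (+) marks chains called higher and (-) chains called lower in Sox10+EpCAM+ fMaSC. Within their rows, collagen I, III and VI chains are darker in the 2 Sox10+EpCAM+ libraries than in the others. Col9a3 is brighter in all 4 fMaSC libraries than in the stroma libraries.

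Other genes of a cartilage-type matrix went with collagen IX. Of 11 genes of that list kept, 9 were higher and 1 lower, with a median log2 fold of 3.94, and 7 reached 1 FPKM in fMaSC only. Cnmd (chondromodulin, a secreted inhibitor of vessel growth) was at 34.1 and 37.5 against 0.135 FPKM, a log2 fold of 5.02 (SE 0.33, limma adjusted p = 0.000607). Snorc, a cartilage proteoglycan, was at 29.9 and 27.6 FPKM and listed at 0 in the stroma. Mia, a small secreted protein of cartilage and melanoma that is not on the list, was at 77.6 and 60.6 against 0.363 FPKM. Matn2, a matrilin, was the member lower in fMaSC, at 3.49 and 6.28 against 33.4 FPKM. The list shares Col2a1, Col9a1, Col9a2, Col9a3 and Col11a2 with the collagen chains, and Col11a1 was not called.

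Enzymes that modify and cross-link collagen were lower with few exceptions. Of 22 such genes, 19 were lower and 2 higher (median -2.16). Of the 22, 5 reached 1 FPKM in the stroma only and 1 in fMaSC only. Among the 16 that both fractions held, 14 were lower and 1 higher. There were 13 called lower without fMaSC replicate 1 or 2. Pcolce, an enhancer of procollagen cleavage, was at 1.99 and 3.48 FPKM in fMaSC and 341 in the stroma, a log2 fold of -6.55 (SE 0.40, limma adjusted p = 0.000516). Lox, the cross-linking oxidase, was at 0.535 and 0.778 against 111 FPKM, and its relatives Loxl1 and Loxl2 had folds of -4.90 and -4.74. The procollagen peptidase Adamts2 and the collagen chaperone Fkbp10 had folds of -4.02 and -3.01. Adamts3, a relative of Adamts2, was higher, at 4.14 and 4.10 against 0.430 FPKM, and so was Plod2, a lysyl hydroxylase. The call of Adamts3 ended on values scaled to the same sum with (limma adjusted p = 0.104) or without (0.0666) mitochondrial genes. Neither gene was called higher on those values. Plod2 also lost its call without fMaSC replicate 1 (0.0993) or 2 (0.115).

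Elastic fibre genes and small proteoglycans followed. Of 17 elastic fibre and microfibril genes 12 were lower and none higher (median -2.62), and of 22 proteoglycan and hyaluronan genes 13 were lower and 1 higher (median -1.20). In each of these lists 3 genes reached 1 FPKM in the stroma only. The proteoglycan list held 6 or 7 genes called lower without fMaSC replicate 1 or 2. Fbn1, the fibrillin of microfibrils, was at 2.87 and 3.66 against 85.5 FPKM, and Mfap4 at 0.612 and 0.865 against 122. Eln, elastin itself, was at 2.25 and 2.26 against 19.04 FPKM, a log2 fold of -2.62 (SE 0.31, limma adjusted p = 0.00314). The leucine-rich proteoglycans Dcn, Lum and Bgn had folds of -6.18, -5.86 and -6.09. Sdc4, a cell surface syndecan, was the member higher (73.8 and 82.9 against 17.1 FPKM), with an adjusted p of 0.0943 on values scaled to the same sum. Fbln1, Vcan and Sdc1 were not called.

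Basement membrane genes split between the fractions, with 7 higher and 8 lower of 21 kept and a median of -0.28. Of the 21, 6 reached 1 FPKM in fMaSC only and 3 in the stroma only. Among the 12 that both fractions held, 3 were higher and 5 lower. The laminin chains Lama5 and Lama1 were higher, Lama5 at 29.4 and 28.5 against 2.85 FPKM and Lama1 at 3.93 and 5.16 against 0.0804. Nid1, a nidogen that links laminin to collagen IV, was at 2.88 and 4.72 FPKM in fMaSC and 179.9 in the stroma, a log2 fold of -5.26 (SE 0.48, limma adjusted p = 0.00148), and Nid2 at 0.943 and 1.91 against 36.8. Lamb1 and Lamc1, the chains that most laminins share, were not called (67.3 and 86.1 against 92.8 FPKM for Lamc1). Without fMaSC replicate 1 there were 3 genes called lower and without replicate 2 there were 4. On values scaled to the same sum 3 were called higher, without mitochondrial genes in the scaling 4, and with no filter on low values 5 were called lower.

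Secretory products of the gland were already measurable in the fMaSC libraries. Of 12 milk and secretory genes kept, 6 reached 1 FPKM in fMaSC only, and 4 of the 6 that both fractions held were higher. In all, 9 of the 12 were higher and none lower (median 2.35). The caseins Csn3 (above) and Csn1s1 (27.8 and 26.3 against 0.691 FPKM) and Lalba, which encodes the milk protein alpha-lactalbumin (34.2 and 24.4 against 0.255 FPKM), were among them. Lalba had a log2 fold of 4.57 (SE 0.46, limma adjusted p = 0.00189). Csn2, beta-casein, was at 2.25 and 1.74 against 1.40 FPKM and was not called. Lcn2, an iron-siderophore carrier of innate defence, was at 330.4 and 303 against 5.96 FPKM, and Wfdc18 at 100.1 and 82.1 against 0.653. Scaled to the same sum, 6 of the 12 were called.

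Of 16 ion and water transport genes 12 were higher and none lower (median 2.40). Of the 16, 8 reached 1 FPKM in fMaSC only, and 4 of the 8 that both fractions held were higher. Aqp5, a water channel of glandular epithelium, was at 42.6 and 44.7 against 0.415 FPKM, a log2 fold of 4.98 (SE 0.27, limma adjusted p = 0.00042), and Car12, a membrane carbonic anhydrase, at 57.3 and 67.2 against 0.764. The potassium channels Kcnk1 and Kcnn4 had log2 folds of 4.70 and 4.12, and the calcium channel Trpv6 of 2.87. Fxyd3, a regulator of the sodium pump, was at 52.7 and 48.2 against 0.450 FPKM. Aqp1, Car2, Slc2a1 and Atp1b1 were not called.

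**Figure D3:**
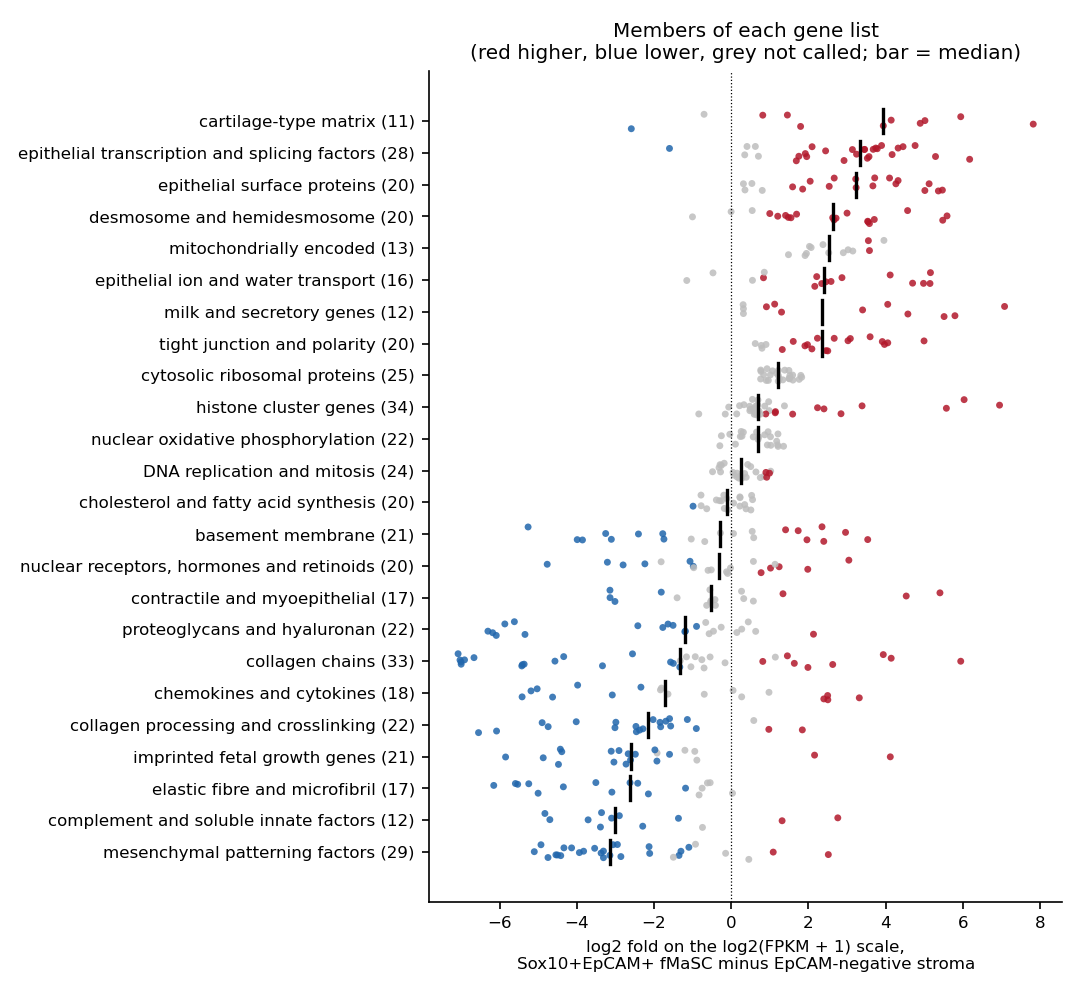
Log2 fold of each member of each gene list (x axis, Sox10+EpCAM+ fMaSC minus EpCAM-negative stroma on the log2(FPKM + 1) scale; 1 point per gene, number kept in brackets). Red members were called higher, blue lower and grey not called, and the black bar is the median, from 3.94 for cartilage-type matrix to -3.14 for mesenchymal patterning factors.

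Most of the imprinted growth genes, and of the complement and soluble innate genes, that were kept were lower in fMaSC. Of 21 imprinted fetal growth genes kept, 15 were lower and 2 higher (median -2.61), and without fMaSC replicate 1 or 2 there were 8 or 9 lower. Of the 21, 5 reached 1 FPKM in the stroma only and 1 in fMaSC only. Igf2, the fetal growth factor, was at 21.1 and 29.2 FPKM in fMaSC and 1483 in the stroma, a log2 fold of -5.84 (SE 0.39, limma adjusted p = 0.000616). Peg10 and Zim1 had folds of -4.43 and -4.87, and Ndn, a growth suppressor of the MAGE family, of -4.39. Nnat, the imprinted proteolipid neuronatin, went the other way with Phlda2, a restrainer of placental growth, at 208 and 189 against 10.5 FPKM for Nnat, a log2 fold of 4.12 (SE 0.30, limma adjusted p = 0.000772). Phlda2 lost its call without fMaSC replicate 1 (0.058). Gnas, Igf2r, Peg3 and Rian were not called.

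Of 12 complement and soluble innate genes kept, 9 were lower and 2 higher (median -2.999). Of the 12, 5 reached 1 FPKM in the stroma only and 1 in fMaSC only. Among the 6 that both fractions held, 4 were lower and 1 higher. Without fMaSC replicate 1 there were 5 lower, and without replicate 2 there were 6. Serping1, which encodes the inhibitor of the first complement step, was at 0.522 and 0.800 against 41.98 FPKM, a log2 fold of -4.70 (SE 0.55, limma adjusted p = 0.00304), and C3, the central component, at 1.83 and 1.82 against 23.2. Clu, the secreted chaperone clusterin, was higher in fMaSC (38.6 and 52.4 against 5.80 FPKM). Of 18 chemokines and cytokines, 7 were lower and 4 higher (median -1.72), with 2 and 3 lower without fMaSC replicates 1 and 2. Ccl11, the eosinophil attractant eotaxin, was at 0.549 and 0.837 against 71.1 FPKM. Cx3cl1, a membrane-bound chemokine, was higher in fMaSC (17.8 and 20.9 against 1.04 FPKM), and so was Cxcl14 (12.4 and 12.6 against 1.39).

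Of 20 nuclear receptor, hormone and retinoid genes, 5 were higher and 6 lower (median -0.32), with 3 in each direction without fMaSC replicate 1 or without replicate 2. There were 3 higher without either CD24low stroma library or with no filter on low values, and 1 and 2 higher on values scaled to the same sum with and without mitochondrial genes. Aldh1a3, which makes retinoic acid, was at 38.1 and 44.6 FPKM in fMaSC and 4.11 in the stroma, a log2 fold of 3.05 (SE 0.21, limma adjusted p = 0.000687). Crabp1, which binds retinoic acid in the cytosol, had the opposite direction, at 0.952 and 0.774 against 16.2 FPKM. Pparg, the regulator of fat cells, was at 0.647 and 0.668 against 44.1 FPKM, and the thyroid hormone receptor Thra at 6.24 and 6.82 against 51.5. Esr1, the oestrogen receptor, was at 0.0917 and 0.0822 FPKM in fMaSC and 4.13 in the stroma, a log2 fold of -2.24 (SE 0.37, limma adjusted p = 0.00906). That call ended without fMaSC replicate 1 (0.0624) or 2 (0.0605). The retinoic acid receptors Rara and Rarg and the glucocorticoid receptor Nr3c1 were not called.

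Ligands and receptors were set side by side to show which fraction held each. Of 54 ligands, 14 were higher and 19 lower in fMaSC, 14 were not called and 7 did not pass the filter. Of 48 receptors, 13 were higher and 13 lower, 17 were not called and 5 did not pass. Of the 55 pairs listed, 8 had the ligand higher in fMaSC and the receptor lower, and 6 had the ligand lower and the receptor higher. In 4 pairs both were higher and in 3 both were lower. The pairs were drawn up as known partners, and RNA levels show no signalling.

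Pairs with the ligand higher in fMaSC and the receptor higher in the stroma began with Pthlh and Pth1r. Pthlh, the parathyroid hormone-related peptide, was at 59.8 and 62.1 FPKM in fMaSC and 0.825 in the stroma, a log2 fold of 5.08 (SE 0.37, limma adjusted p = 0.000757). Its receptor Pth1r was at 0.114 and 0.0744 against 13.6 FPKM, a log2 fold of -3.74 (SE 0.21, limma adjusted p = 0.000441). The libraries of either fraction therefore lay far apart for both genes, in opposite directions. Pdgfc, a platelet-derived growth factor, was at 48.2 and 53.1 against 2.42 FPKM, and Pdgfra, its receptor on fibroblasts, at 3.17 and 3.29 against 31.5. The call of Pdgfra ended without fMaSC replicate 1 (adjusted p = 0.109) or 2 (0.1) or with no filter on low values (0.0648). Edn1, endothelin 1, was at 17.2 and 13.4 against 0.494 FPKM and its receptor Ednra at 0.591 and 0.906 against 19.6. Areg, the EGF-family ligand amphiregulin, was at 13.9 and 13.4 against 0.314 FPKM, while Egfr was at 2.18 and 2.42 against 9.68, with an adjusted p of 0.0428 that became 0.189 and 0.158 without fMaSC replicates 1 and 2 and 0.0866 and 0.0871 without CD24low stroma replicates 1 and 2. Egfr was also not called with no filter on low values (0.105) or on values scaled to the same sum (0.0745).

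Of 3 Notch ligands listed, Dll1 and Jag2 were higher in fMaSC, while Jag1 was at 15.1 and 16.02 against 19.5 FPKM and was not called. Dll1 was at 36.4 and 36.5 FPKM in fMaSC and 1.02 in the stroma, a log2 fold of 4.21 (SE 0.24, limma adjusted p = 0.000468). Jag2 was at 6.77 and 7.81 against 0.157 FPKM, a log2 fold of 2.84 (SE 0.18, limma adjusted p = 0.000583). Notch3, a receptor of mural cells, was at 5.79 and 7.83 against 24.7 FPKM, and its call ended without fMaSC replicate 1 (0.089) or 2 (0.0531). Notch1 was not called (31.2 and 36.2 against 14.4 FPKM). Other pairs of this kind were Pdgfb with Pdgfrb (0.650 and 0.896 against 59.1 FPKM for the receptor) and Jag2 with Notch2. The calls of Pdgfb (0.0511 and 0.0522) and Notch2 (0.212 and 0.159) ended without fMaSC replicates 1 and 2, and that of Notch2 also without CD24low stroma replicates 1 and 2 (0.0866 and 0.0872). On values scaled to the same sum the adjusted p was 0.31 for Pdgfb and 0.0819 for Notch2, and with no filter on low values 0.12 for Notch2.

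In the other direction, Fgf10, a ligand that drives mammary bud outgrowth through Fgfr2, was at 0.152 and 0.124 FPKM in fMaSC and 24.03 in the stroma, a log2 fold of -4.46 (SE 0.36, limma adjusted p = 0.00103). Fgf7, another ligand of that receptor, was at 0.238 and 0.425 against 10.3 FPKM. Fgfr2 was at 58.7 and 63.04 against 18.5 FPKM, a log2 fold of 1.66 (SE 0.30, limma adjusted p = 0.0123) that lost its call without fMaSC replicate 1 (0.0737) or 2 (0.0813) and on values scaled to the same sum (0.36). Cxcl12 was at 2.56 and 2.93 against 135 FPKM and its receptor Cxcr4 at 21.5 and 21.7 against 3.01. Cxcl12 had a log2 fold of -5.19 (SE 0.34, limma adjusted p = 0.000615) and Cxcr4 of 2.49 (SE 0.23, limma adjusted p = 0.0016), with 0.0528 for Cxcr4 on values scaled to the same sum.

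Edar, the ectodysplasin receptor of skin appendages, was at 8.46 and 8.62 FPKM in fMaSC and 0.0516 in the stroma, a log2 fold of 3.18 (SE 0.17, limma adjusted p = 0.000384), and its ligand Eda at 0.654 and 0.750 against 3.08. Eda lost its call without fMaSC replicate 1 (0.0751) or 2 (0.0634) and on values scaled to the same sum (0.0524). Fzd6, a WNT receptor, was at 8.36 and 9.33 against 0.247 FPKM and the ligand Wnt10b at 0.212 and 0.267 against 1.67. Hgf was low everywhere (0.0387 and 0.0826 against 2.04 FPKM) and Met was at 6.41 and 7.52 against 2.38. Without fMaSC replicates 1 and 2 the adjusted p was 0.0941 and 0.0829 for Hgf and 0.0657 and 0.0917 for Met. On values scaled to the same sum it was 0.48 for Met, and with no filter on low values 0.0531 for Hgf. Wnt2, a ligand of mammary mesenchyme, was at 0.149 and 0.124 against 12.4 FPKM, and Igf1 at 0.111 and 0.315 against 19.9. Among the other WNT ligands, Wnt6 was higher in fMaSC, at 2.43 and 3.99 against 0.661 FPKM, a log2 fold of 1.32 (SE 0.28, limma adjusted p = 0.0227), and Wnt5a was not called (3.91 and 3.96 against 8.90 FPKM). Wnt6 lost its call without fMaSC replicate 2 (0.083), without CD24low stroma replicate 1 (0.0519) or 2 (0.0522), with no filter on low values (0.0642) and on values scaled to the same sum (0.235).

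Among the pairs with both genes higher in fMaSC, Nrg1, the ligand neuregulin 1, was at 8.77 and 10.7 FPKM against 0.260 and its receptor Erbb3 at 34.1 and 39.4 against 0.208. Erbb3 had a log2 fold of 4.96 (SE 0.28, limma adjusted p = 0.00044). Efna1 and its receptor Epha2 had log2 folds of 3.59 and 2.82. Among the pairs with both lower, Angpt1 and its endothelial receptor Tek were at 6.59 and 5.45 FPKM in the stroma and at or below 0.179 FPKM in both fMaSC libraries. Sema3a and its receptor Nrp1 had folds of -1.53 and -5.09. The ligands Hbegf, Jag1, Vegfa, Mdk, Tgfb2 and Gas6 were not called, nor were the receptors Fgfr1, Igf1r, Bmpr1a, Neo1 and Tgfbr1.

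**Figure D4:**
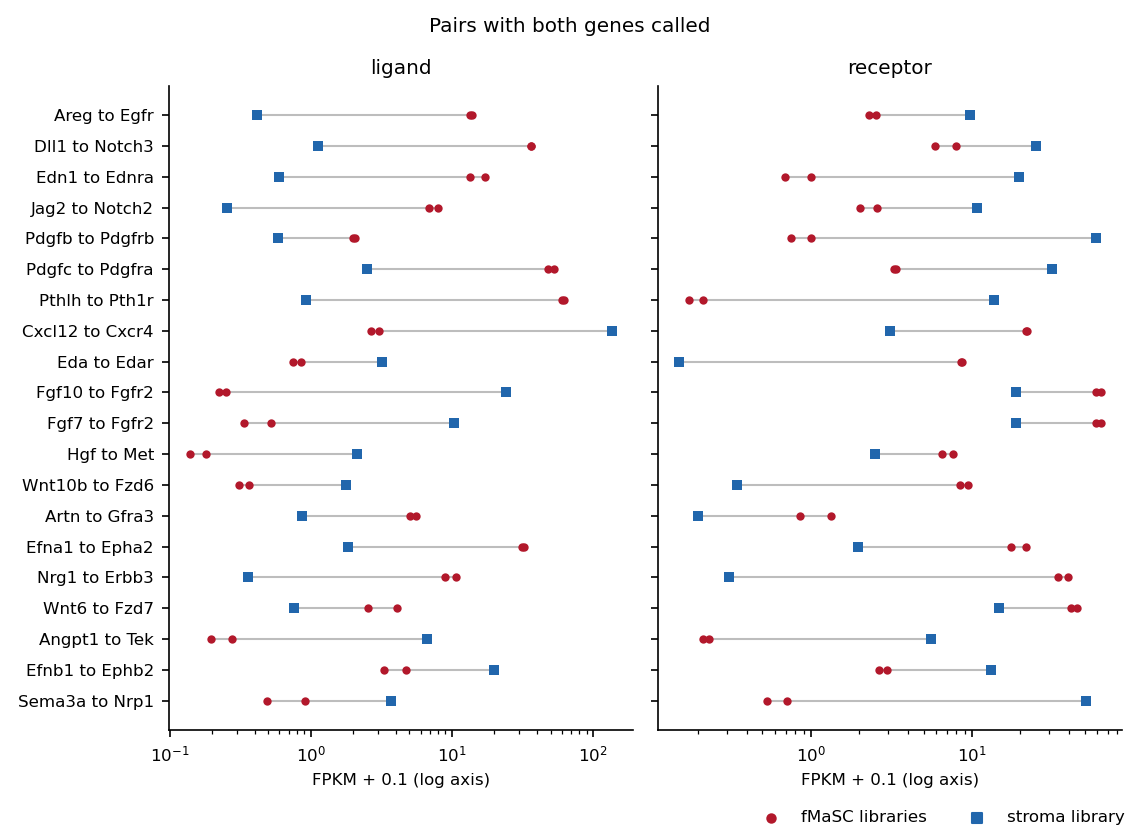
Level of the ligand (left) and receptor (right) of 20 of the 21 pairs with both genes called, as FPKM + 0.1 on a log axis. Red circles are the 2 Sox10+EpCAM+ fMaSC libraries and blue squares the EpCAM-negative stroma library; for Pthlh to Pth1r the circles lie right of the square for the ligand and left of it for the receptor.

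In several gene groups few or no members were called. Of 24 DNA replication and mitosis genes, 3 were called higher (median 0.26), and the median was -0.53 on values scaled to the same sum. No member was called without any 1 of the fMaSC or CD24low stroma libraries, nor on values scaled to the same sum. Pcna, the DNA polymerase clamp, was at 109 and 96.7 FPKM in fMaSC and 49.980 in the stroma, and the topoisomerase gene Top2a at 46.5 and 44.2 against 56.8. None of 22 nuclear genes of oxidative phosphorylation was called (median 0.70, or -0.12 on values scaled to the same sum), and none of 25 cytosolic ribosomal protein genes (median 1.22, or 0.42). Without either CD24+CD49f+ fMaSC library 7 of the 22 and 6 of the 25 were called higher, and in the 3 libraries alone 10 and 18 were. Of 13 mitochondrially encoded genes 2 (mt-Nd4l and mt-Nd5, subunits of respiratory complex I) were called higher at a median of 2.52. Neither mt-Nd4l (adjusted p = 0.164 and 0.11) nor mt-Nd5 (0.155 and 0.106) was called without fMaSC replicate 1 or 2, and no other was. Without CD24+CD49f+ fMaSC replicates 1 and 2 there were 5 and 4, and on values scaled to the same sum there were 7. Of 20 genes of cholesterol and fatty acid synthesis only Srebf1, a regulator of lipid synthesis, was called, at 37.8 and 43.6 against 81.7 FPKM, and it was not without fMaSC replicate 1 (0.195) or 2 (0.126) or CD24low stroma replicate 1 (0.0567) or 2 (0.0577). Of 17 contractile and myoepithelial genes 3 were higher and 4 lower (median -0.53). Krt5, Krt14 and Oxtr, the oxytocin receptor of myoepithelium (1.70 and 1.82 against 0.0896 FPKM), were higher. The 4 lower were the smooth muscle myosin Myh11, its kinase Mylk, the intermediate filament gene Des and the actin-binding gene Synpo2, with log2 folds of -3.14, -3.14, -3.01 and -1.81. Myh11 lost its call without fMaSC replicate 1 (0.0598) or 2 (0.0551). Acta2, smooth muscle actin, was not called (50.028 and 56.9 against 71.8 FPKM).

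The 2 fMaSC libraries were close to each other. They differed by 1 or more on the log2(FPKM + 1) scale for 180 genes (1.24%), 85 with the higher value in replicate 1 and 95 in replicate 2, and the median absolute gap was 0.141. The widest gaps at 5 FPKM or more were those of Dcpp2, a salivary-type secretory gene (30.3 and 11.4 FPKM in replicates 1 and 2), and Cytl1. In the other direction Cma1, a mast cell protease (1.55 and 5.29 FPKM), and Cwc22, a splicing factor (25.97 and 54.1 FPKM), were higher in replicate 2, and so was Col1a2. Mast cell genes summed to 3.46 and 16.1 FPKM in the fMaSC libraries and 16.2 in the stroma, and none was called.

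The fold of the Sox10 sort was then compared with that of the CD24 and CD49f sort, which shares no library with it. The difference was called for 212 genes (1.46%). The fold was lower here for 203 (1.4%) and higher for 9 (0.0621%). Of the 203, 202 were also called lower in Sox10+EpCAM+ fMaSC against their stroma, and 163 had negative folds in both sorts, while 70 of the 203 were called lower in the other sort. The count of all calls fell to 12 without CD24low stroma replicate 1 and to 19 without replicate 2, to 57 (35 higher and 22 lower) without fMaSC replicate 1 of the Sox10 sort, to 58 (27 and 31) without its replicate 2 and to 46 on values scaled to the same sum, and it rose to 753 without CD24+CD49f+ fMaSC replicate 1 and to 334 without replicate 2.

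Among the lower differences were 10 of 33 collagen chains kept, 9 of 29 mesenchymal patterning factors, 3 of 7 adipocyte-lineage genes and 4 of 21 imprinted growth genes. Col6a2 was at 2.48 and 3.36 FPKM in the 2 Sox10+EpCAM+ libraries and 506 in their stroma, and at 122 and 194 in CD24+CD49f+ fMaSC and 444 and 273 in CD24low stroma, a difference of folds of -5.85 (SE 0.55, limma adjusted p = 0.0172). Col1a2 was at 7.49 and 15.02 against 1400.2 FPKM here and at 438 and 772 against 1695 and 1395 there, a difference of -5.51 (SE 0.71, limma adjusted p = 0.0363). Postn, a matrix protein of connective tissue, had a difference of -5.12 and Dpt of -5.19. Both CD24+CD49f+ fMaSC libraries lay between the Sox10+EpCAM+ libraries and all 3 stroma libraries for each of these genes. The 8 fibroblast markers together summed to 74.7 and 105.5 FPKM in Sox10+EpCAM+ fMaSC and to 2238 and 3467 in CD24+CD49f+ fMaSC, against 6439 in the EpCAM-negative and 7590 and 7208 in the CD24low stroma, and none of the 8 was at 0 in any library. The part of such cells in the difference was not tested. The differences of Col6a2 (adjusted p = 0.142, 0.112, 0.0817 and 0.0871), Col1a2 (0.264, 0.172, 0.128 and 0.17) and Postn (0.258, 0.169, 0.126 and 0.138) were not called without fMaSC replicate 1 or 2 of the Sox10 sort or without CD24low stroma replicate 1 or 2, and that of Dpt was not without the first 3 of these (0.0803, 0.0648 and 0.0613). On values scaled to the same sum Col6a2 (0.0525), Col1a2 (0.0786) and Postn (0.0525) were not called either.

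Of the 9 genes with the higher fold here, 4 encode histone H2B. Hist1h2bm (ENSMUSG00000096807, chromosome 13, 21722098 to 21722478) was at 224 and 238 FPKM in the 2 Sox10+EpCAM+ libraries and 0.881 in their stroma, and at 1.33 and 0.203 in CD24+CD49f+ fMaSC and 0.600 and 0.0192 in CD24low stroma. Its difference of folds was 6.56 (SE 0.59, limma adjusted p = 0.0159). Hist1h2bf (ENSMUSG00000069268, chromosome 13, 23573736 to 23574196) was at 106 and 112 against 0.689 FPKM here and at 1.16 and 0.684 against 0.590 and 0.951 there, with a difference of 5.92. Hist1h2bb (ENSMUSG00000075031, chromosome 13, 23746734 to 23747202) was at 80.6 and 86.8 against 0.781 FPKM here and at 2.78 and 0.389 against 0.489 and 0.683 there. Hist2h2be was lower in level, at 9.92 and 10.4 against 0.556 FPKM. The Sox10+EpCAM+ libraries stood alone above the other 5 for all 4 genes. The difference of Hist1h2bf (limma adjusted p = 0.00305) was called in every alternative that gives this contrast. Those of Hist1h2bm (0.11, 0.106, 0.0926 and 0.0772), Hist1h2bb (0.268, 0.25, 0.156 and 0.2) and Hist2h2be (0.0803, 0.0792, 0.0995 and 0.0948) were not called without fMaSC replicate 1 or 2 of the Sox10 sort or CD24low stroma replicate 1 or 2. With a pseudocount of 0.1 Hist1h2bm (0.127) and Hist1h2bb (0.0978) were not called, and on values scaled to the same sum Hist1h2bb (0.082) and Hist2h2be (0.252) were not.

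The near-identity of H2B copies is shown by the stretch of 100 coding bases, the read length, in which these 3 genes differ least. The stretch covers bases 227 to 326 of the coding sequence (GENCODE vM21, GRCm38), written 5′ to 3′ on the strand of the gene, and capitals mark the position at which the 3 copies are not all alike. Hist1h2bm is on the plus strand at chr13:21722324-21722423, Hist1h2bf on the minus strand at chr13:23573865-23573964 and Hist1h2bb on the plus strand at chr13:23747021-23747120.
Hist1h2bm: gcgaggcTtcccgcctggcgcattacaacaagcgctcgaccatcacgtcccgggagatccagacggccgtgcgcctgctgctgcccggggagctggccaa
Hist1h2bf: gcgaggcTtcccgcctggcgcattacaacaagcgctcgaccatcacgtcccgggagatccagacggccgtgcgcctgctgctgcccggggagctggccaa
Hist1h2bb: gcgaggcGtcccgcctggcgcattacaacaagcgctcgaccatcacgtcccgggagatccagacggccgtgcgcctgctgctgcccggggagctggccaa

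Over its coding sequence of 381 bases, Hist1h2bm differed from Hist1h2bf at 11 bases (97.1% identical), from Hist1h2bb at 23 (94%) and from Hist2h2be at 49 (87.1%). Of the 282 stretches of 100 bases in this coding sequence, 7 were identical in Hist1h2bf, 28 in Hist1h2bl and none in Hist1h2bb or Hist2h2be. A read from a shared stretch cannot be given to 1 copy, and how such reads were counted is not given in the sources used here. Hist1h2bl differed from Hist1h2bm at 8 bases, and was at 5.46 and 5.602 FPKM in fMaSC and 2.58 in the stroma without being called.

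Levels were also summed by histone class, a grouping made after these values were seen. The 18 H2B genes summed to 502.8 and 527 FPKM in the Sox10+EpCAM+ libraries, 21.9 in their stroma, 63.2 and 27.1 in CD24+CD49f+ fMaSC and 20.6 and 29.7 in CD24low stroma. The 20 H2A genes summed to 21.0 and 17.4 against 10.9 FPKM, the 13 H4 genes to 20.8 and 19.7 against 13.4, the 11 H3 genes to 10.9 and 11.8 against 4.01 and the 6 H1 genes to 7.61 and 11.1 against 17.1. Of 34 histone genes kept, 23 reached 1 FPKM in fMaSC only, and 2 of the 11 that both fractions held were higher. In all, 11 of the 34 were called higher, 8 of them H2B genes and 3 H3 genes. There were 5 without fMaSC replicate 1 or 2, without either CD24low stroma library 7, and without CD24+CD49f+ fMaSC replicates 1 and 2 there were 17 and 18.

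The deposited table also lists added GFP sequences, of which spliced_GFP was the more abundant, and their names do not say which one stands for the reporter. The sequence spliced_GFP stood at 202.1 and 211 FPKM in the Sox10+EpCAM+ libraries, 0.660 in their stroma and between 0.0531 and 0.131 in the 4 libraries of the other sort. Venus, the protein of the Sox10 reporter, is a relative of GFP. The part of the reporter in the H2B values was not tested.

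**Figure D5:**
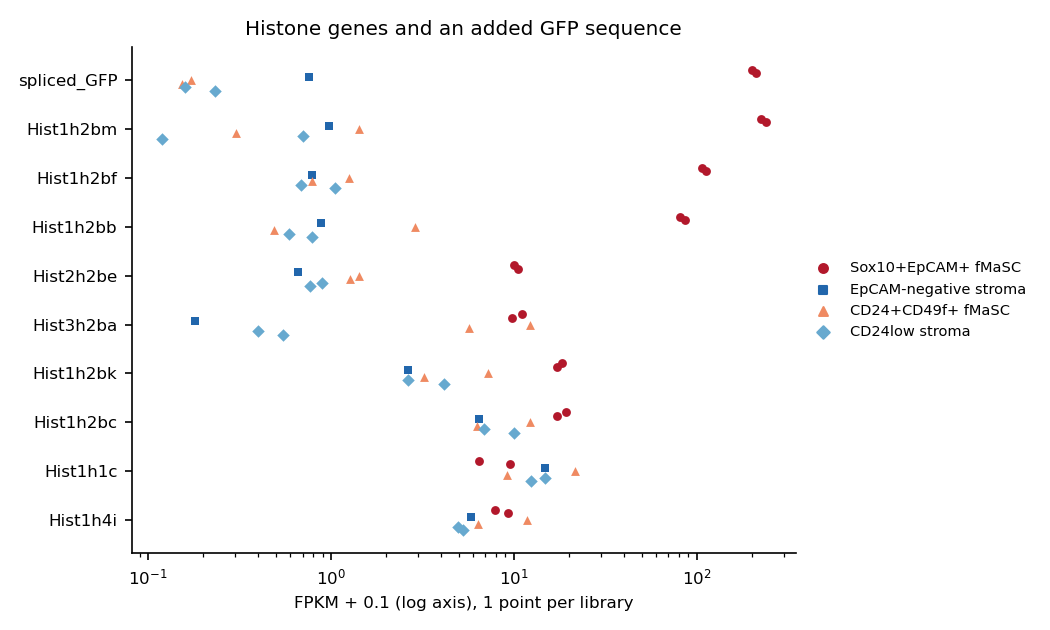
Level of the added sequence spliced_GFP and of 9 histone genes in each of the 7 libraries, as FPKM + 0.1 on a log axis (1 point per library). The 2 Sox10+EpCAM+ libraries (red circles) lie at 202.1 and 211 FPKM for the GFP sequence and above 80 for Hist1h2bm, Hist1h2bf and Hist1h2bb, while the other 5 libraries lie below 3 for these.

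The other genes with the higher fold here were Pglyrp1, a bactericidal peptidoglycan recognition protein, Slc15a2, a peptide transporter, and Fosl1, an AP-1 subunit. The last 2, Gm25541 and n-R5s193 (a 5S ribosomal RNA gene), fell outside the rule for names and are named because they complete the count. Pglyrp1 was at 21.3 and 19.9 FPKM against 0.0703 here and at 5.34 and 5.26 against 0.132 and 0.315 in the other sort, a difference of 1.97 (SE 0.24, limma adjusted p = 0.0332). Slc15a2 was at 25.3 and 26.6 against 0.667 FPKM here and at 12.5 and 12.2 against 2.25 and 1.63 there. Fosl1 was at 34.7 and 35.8 against 3.05 FPKM here and at 15.8 and 15.9 against 4.17 and 4.24 there. For each of Pglyrp1, Slc15a2 and Fosl1 the fMaSC libraries of both sorts lay above their stroma. None of these 3 differences was called without fMaSC replicate 1 (adjusted p = 0.219, 0.305 and 0.324) or 2 (0.191, 0.312 and 0.328) of the Sox10 sort, or without CD24low stroma replicate 1 (0.11, 0.14 and 0.161) or 2 (0.149, 0.132 and 0.2), and that of Slc15a2 was not without CD24+CD49f+ fMaSC replicate 2 (0.0546). Their adjusted p on values scaled to the same sum was 0.477, 0.666 and 0.854.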

How the data were processed

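RNA of sorted fetal mammary cells was measured in 7 libraries, each with 1 column of the table that the authors deposited. Its values are FPKM per gene, per the file headers, with no counts, so depth is unknown and no counting interval is given. STAR, Cufflinks and the GRCm38 (mm10) genome are named in the submitters' processing notes, and versions are not given in the sources used here. GENCODE vM21 identifiers named 36664 of 38579 entries (95.0%), and 8 added sequences (fluorescent reporters and RNA spikes) were left out of the tests. No column went unmapped.

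Values were fitted as log2(FPKM + 1) with limma 3.58.1 (R 4.3.3), empirical Bayes with an intensity trend, over 4 groups of all 7 libraries. The stroma of the Sox10 sort has 1 library, so the spread came from the 3 groups with 2 libraries (3 residual degrees of freedom). Two-sided p-values were adjusted by Benjamini-Hochberg over 14483 genes, with a threshold of 0.05, and the fit was tested on simulated data. Tables and plots were made with Python 3.11.15, pandas 2.3.3 and matplotlib 3.10.9. Fold differences between the sorts were tested as a contrast of the same fit.

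Alternatives were pseudocounts of 0.1 and 0.5, a filter of 1 FPKM in 2 of 7 libraries, no filter, scaling to an equal sum (TPM) with and without mitochondrial genes, trimmed-mean scaling, quantile normalization, a fit without trend, a robust fit, the 3 libraries alone, and each replicate left out. The trimmed-mean factors were computed directly on FPKM.

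The members and the gene lists were chosen with earlier results of these data known, and the histone list after its values were seen. Names follow a rule: the sort genes, the 25 largest folds each way at 5 FPKM or more, up to 6 called members each way and 4 not called per list, all ligands and receptors, the 5 widest replicate gaps each way and the 10 largest differences between sorts each way. Names outside it, such as Col2a1, Col4a1, Col11a2, Elf5, Eln, Esrp2, Grhl2, Grhl3, Ovol2, Pmel, Snai1, Tfap2a, Tfap2b, Trp63 and Zeb2, were chosen after their values were seen. A few genes that the rule covers, and 1 pair, are not reported here. Cells with forced Sox10 expression, which the growth protocol mentions, were not analysed here.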

Additional observations from a re-analysis of the deposited data

Results flagged for a closer look

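The fold between fMaSC and stroma differed between the sorts for 212 genes in a limma contrast of the difference itself (adjusted p under 0.05 in each), 9 higher and 203 lower here on the log2 scale. The 17 that the naming rule picks, 7 higher and the 10 lowest, are given here. The histone genes Hist1h2bm (6.56), Hist1h2bf (5.92), Hist1h2bb (5.04) and Hist2h2be (2.47) had the larger differences upward, with Pglyrp1 (1.97), Slc15a2 (1.82) and Fosl1 (1.47) after them. The 10 downward were Col6a2 (-5.85), Col6a1 (-5.76), Col6a3 (-5.73), Clec3b (-5.52), Col1a2 (-5.51), Col1a1 (-5.51), Col3a1 (-5.32), Dpt (-5.19), Agtr2 (-5.16) and Postn (-5.12). The test spans 2 sorts that differ in reporter, markers and libraries, and these cannot be told apart.

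Among the sequences outside the gene models, spliced_GFP had a mean of 206.7 FPKM in the Sox10+EpCAM+ libraries and mL1-GFP_reporter a mean of 21.55 FPKM, both above every library without the reporter sort. In the EpCAM-negative stroma they were at 0.660 and 0.0679 FPKM. The other 6 added sequences were listed at 0 in all 7 libraries.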

How the results depend on the processing

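No paired analysis was possible because the replicate numbers only follow accession order and the EpCAM-negative stroma has 1 library. Of the 176 genes named as called between fMaSC and stroma, none changed direction in any alternative and 149 kept their call in all but the fit on the 3 libraries alone, which kept all 176. The losses numbered 18 on TPM-scaled values, 14 with mitochondrial genes left out of the scaling, 9 with no filter, 2 after quantile normalization and 1 without trend. Leaving out either fMaSC replicate of the Sox10 sort ended more calls than any of these settings. Leaving out either CD24low stroma library ended some too.

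The count of calls (3799, 1825 higher and 1974 lower) was 2035 with 567 higher on TPM-scaled values and 2263 with 716 higher without mitochondrial genes. The 3 libraries alone gave 7662 calls, 4226 higher and 3436 lower, on 1 residual degree of freedom. Leaving out 1 library gave 1714 to 5528 calls, 924 to 2891 higher and 790 to 2637 lower.

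The difference between the sorts (212, 9 higher and 203 lower) had 362 calls with 349 lower at a pseudocount of 0.1, and 46 with 40 lower on TPM-scaled values. It had 50 with 5 higher and 45 lower without mitochondrial genes, 138 with 125 lower after quantile normalization, and 23 higher with no filter. Leaving out 1 library gave 12 to 753 calls, 3 to 84 higher and 9 to 669 lower, and the balance turned to 35 higher and 22 lower without fMaSC replicate 1 of the Sox10 sort, with 27 and 31 without its replicate 2. The 3 libraries alone cannot give this contrast. The cause of these shifts was not tested. The fits that leave a library out also rest on fewer libraries.

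Depth is not in the table, so folds of genes near 1 FPKM rest on an unknown number of fragments, and the pseudocount shrinks them. The single stroma library has no spread of its own. Of 282 coding stretches of 100 bases in Hist1h2bm, at most 28 were identical in any 1 other H2B copy compared, and how shared reads were counted is not given in the sources used here. Strand was not stated, so whether overlapping antisense genes share reads is unknown.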

Other observations

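Markers of the remaining cell types were summed as well. Of the 6 endothelial genes kept, 3 were called lower, and the 8 on the list summed to 4.76 and 5.14 FPKM in the fMaSC libraries against 19.2 in the stroma. Of the 6, 4 reached 1 FPKM in the stroma only, the 3 called among them, so the filter fixed the direction of those calls. The 2 that both fractions held were not called. The 8 skeletal muscle genes summed to 0.379 and 0.687 against 15.2 FPKM and the 6 neuronal genes to 1.07 and 1.15 against 5.61. The 3 kept of each reached 1 FPKM in the stroma only, so the filter fixed their direction. The 9 epidermal and hair follicle genes summed to 7.33 and 10.8 against 8.73 FPKM, with 1 higher and 1 lower of 3 kept. None of the 4 erythroid genes kept was called, and their list summed to 151.4 and 85.3 FPKM in fMaSC and 91.0 in the stroma, while CD24+CD49f+ fMaSC of the other sort held 6870 and 730.9.

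At 5 FPKM or more in each library of a fraction, 10 of the 54 ligands were carried by fMaSC alone, 13 by the stroma alone, 9 by both and 22 by neither. Of the 48 receptors, 9 were carried by fMaSC alone, 14 by the stroma alone, 14 by both and 11 by neither. These counts follow a level and not a test.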
